A study of Mus musculus with 12 samples.

Results

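Adamts genes encode secreted zinc metalloproteases that cut extracellular matrix proteins, and 10 of them (Adamts1, Adamts2, Adamts4, Adamts5, Adamts7, Adamts8, Adamts9, Adamts10, Adamts12 and Adamts15) were followed across 12 single-colour arrays of mouse uterus. Every probe whose gene name, or whose accession's current symbol, was one of these names was taken, which gave 24 probes for 10 of the 27666 genes named on the array. The names were chosen from the family with measured values of these same 12 arrays known (their signals and E2 responses), so every level, difference and count of members below is a description of chosen genes, and the adjusted p-values only set each difference against the spread between mice. Each of the 4 groups held 3 ovariectomized adult females of strain C57bl6/Jx129, at least 10 weeks old, 1 uterus per array, taken 2 h after an injection of 100 ul. EAAE females carried an estrogen receptor alpha (ERα, gene Esr1) that the study describes as deficient in DNA binding, and WT females carried the normal receptor. The groups were EAAE with estradiol (E2), EAAE with saline, WT with E2 and WT with saline. All animals had rested 10 to 14 days after loss of the ovaries, the E2 dose is not given in the sources used here, and the labels do not say in which cells or in how many copies the EAAE allele was present.

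Most of these enzymes are made as inactive precursors, trimmed by furin-like convertases, and held in check by TIMP inhibitors, TIMP3 above all. Adamts1, Adamts4, Adamts5, Adamts8, Adamts9 and Adamts15 form the branch known for cutting hyalectan proteoglycans such as versican and aggrecan. Adamts2 removes the amino propeptide of fibrillar procollagens, Adamts7 and Adamts12 form a pair that can cut cartilage oligomeric matrix protein, and Adamts10 is tied to fibrillin microfibrils. The uterus rebuilds its stromal matrix with each wave of estrogen, and ERα is the receptor through which E2 acts there, either on estrogen response elements in DNA or through other bound factors.

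The sequences of 4 member probes are shown first, since the signals below are those of 60-base probes and not of whole transcripts and these 4 return below. Each has a frame in the sense direction with no stop codon before its end, as do 19 of the 24 member probes, which does not place a probe in coding sequence. The capitals mark a stop codon at the end of such a frame. The 4 are the second probe of Adamts1 at chr16:85791871-85791930, minus strand, the brightest probe of Adamts2 at chr11:50760727-50760786, plus strand, another Adamts2 probe at chr11:50733443-50733502, plus strand, and a probe of Adamts10 at chr17:31624925-31625840, plus strand. The Adamts10 probe spans 916 bases of the genome and therefore crosses a splice junction. Positions are those of the array's design on build mm7.
Adamts1 second probe: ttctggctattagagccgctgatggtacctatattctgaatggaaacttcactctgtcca
Adamts2 brightest probe: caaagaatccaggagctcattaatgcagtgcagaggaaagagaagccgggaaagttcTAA
Adamts2 upstream probe: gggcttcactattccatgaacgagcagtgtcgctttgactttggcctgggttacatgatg
Adamts10 junction probe: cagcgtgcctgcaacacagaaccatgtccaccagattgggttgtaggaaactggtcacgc

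RefSeq promoters of build GRCm38.p6, 250 bases before to 50 after the annotated start, were held for 4 members, Adamts1, Adamts2, Adamts9 and Adamts12. Adamts1 and Adamts9 are shown because they were the members whose signal rose with E2 in both genotypes. Capitals mark every match to 8 motifs searched on both strands. These were the estrogen response element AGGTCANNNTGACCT, which 0.0213% of the 32851 promoters in the table hold, and the shorter AGGTCA site that it contains (16.3%). The others were AP-1 as TGANTCA (7.81%), the cAMP response element TGACGTCA (1.79%), the GC box GGGCGG (35.7%), CCAAT (37.4%), the TATA box TATAAA (13.6%) and the hormone response element GNACANNNTGTNC (0.475%). The Adamts1 window lies at chr16:85803064-85803363 on the minus strand.
Adamts1 promoter: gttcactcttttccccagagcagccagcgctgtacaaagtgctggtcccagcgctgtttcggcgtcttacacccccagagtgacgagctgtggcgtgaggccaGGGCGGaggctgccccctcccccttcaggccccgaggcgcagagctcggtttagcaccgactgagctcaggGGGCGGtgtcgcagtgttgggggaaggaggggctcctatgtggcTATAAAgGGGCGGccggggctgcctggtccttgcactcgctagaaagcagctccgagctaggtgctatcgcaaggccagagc
The Adamts9 window lies at chr6:92943485-92943784 on the minus strand.
Adamts9 promoter: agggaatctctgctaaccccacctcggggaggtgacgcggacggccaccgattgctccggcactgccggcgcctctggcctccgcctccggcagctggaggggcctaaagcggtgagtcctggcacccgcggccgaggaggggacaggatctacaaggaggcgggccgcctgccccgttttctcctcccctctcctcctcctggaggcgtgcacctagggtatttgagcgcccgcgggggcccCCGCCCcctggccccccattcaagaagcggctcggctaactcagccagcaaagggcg
Adamts1 held 3 GC boxes and a TATA box whose first base lay 32 bases before the start. Adamts9 held 1 GC box, on the other strand. Adamts2 held 5 GC boxes and Adamts12 held none of the 8 motifs. Their windows were rich in G and C, at 64.7% in Adamts1, 70.0% in Adamts9, 77.3% in Adamts2 and 62.0% in Adamts12, against a median of 52.7% over all promoters. No estrogen response element or AGGTCA site was found in these 4 windows, which says only that those letters are not there.

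Signals are given as log2 of the processed intensity minus the array's own 75th percentile, so that 0 is the 75th percentile of that array. Between 63.39% and 73.6% of probes were well above background on an array, and the number of arrays limits the precision. The brightest probe of each member stands for the gene. On build mm7 these lie on the plus strand for Adamts8 (chr9:30862193-30862252), Adamts7 (chr9:89828591-89828650), Adamts10 (chr17:31628618-31628677) and Adamts12 (chr15:11406886-11406945). On the minus strand they lie for Adamts1 (chr16:85790724-85790783), Adamts5 (chr16:85858359-85858419), Adamts9 (chr6:92861199-92861258) and Adamts15 (chr9:30800473-30800532), and exon and UTR annotation of that build was not used here. All 10 members passed the filter, and each of these 10 probes was well above background on all 12 arrays. Markers of uterine stroma, smooth muscle and epithelium were bright, with list means between 2.69 and 5.78, while 4 tested markers of the removed ovary averaged -2.99 to -1.90. Esr1 itself averaged 3.13 ± 0.11 in EAAE E2 uteri and 2.71 ± 0.05 in WT E2 uteri, and 3.35 ± 0.12 in EAAE saline uteri and 2.96 ± 0.10 in WT saline uteri (SD, n = 3 each), a measure of its level that does not check the altered residues. In whole uterus, fewer cells of a type and less RNA per cell cannot be told apart.

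The first question was which proteases moved within 2 h of E2 in each genotype. In EAAE uteri, Adamts1 and Adamts9 rose and no member fell (2 higher, 0 lower and 8 not called), where 0.689% of the 19301 tested genes were called higher and 0.715% lower. In WT uteri, Adamts1, Adamts4, Adamts8, Adamts9 and Adamts15 rose, and Adamts5, Adamts7 and Adamts10 fell, with Adamts2 and Adamts12 not called. Of all tested genes, 19.5% were called higher and 29.9% lower in WT. A call here is an adjusted p under 0.05 in limma with Benjamini-Hochberg adjustment over all tested genes. The median log2 difference of the 10 members was 0.12 in EAAE and 0.64 in WT, against 0.03 and -0.15 over all tested genes. Adipocyte markers also moved, since all 7 were lower with E2 in WT uteri with a median log2 difference of -3.46, while 0 of 7 were called in EAAE. Their list mean was 1.21 to 3.45 in EAAE E2 uteri and 0.65 to 3.15 in EAAE saline uteri, and -2.99 to 0.21 in WT E2 uteri and 0.42 to 3.33 in WT saline uteri. Among 8 stromal markers, 1 was higher and 7 were lower with E2 in WT, where their list mean was 2.69 to 2.74 after E2 and 3.48 to 3.64 after saline. In EAAE 1 stromal marker was higher and 0 were lower, with a list mean of 3.74 to 3.90 after E2 and 3.48 to 3.62 after saline. Among 6 endothelial markers 4 were lower in WT and 0 were called in EAAE. The endothelial list mean was 0.53 to 0.83 in EAAE E2 uteri and 0.59 to 0.66 in EAAE saline uteri, and 0.53 to 0.66 in WT E2 uteri and 0.87 to 0.91 in WT saline uteri. The part of these markers in the Adamts results was not tested.

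**Figure D1:**
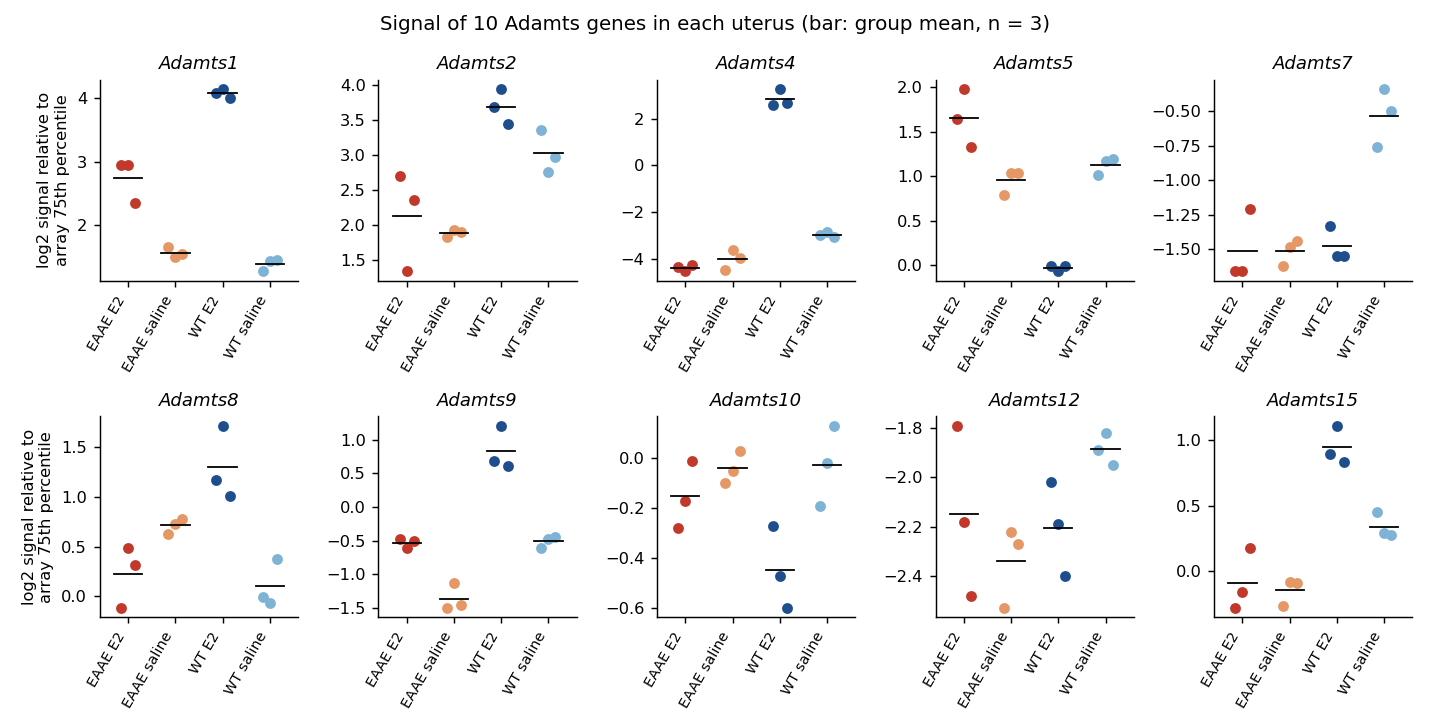
Signal of the brightest probe of each Adamts gene in every uterus, as log2 minus the 75th percentile of its array (vertical axis, own scale per gene), for EAAE E2, EAAE saline, WT E2 and WT saline. Points are single mice and bars are means of 3, and Adamts4 stands at 2.61 to 3.28 in WT E2 uteri and at or below -2.85 in the other groups.

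Adamts4, an aggrecanase that also cuts versican, gave the widest difference between groups. Its only probe (chr1:171229633-171229692, plus strand) read -4.33, -4.54 and -4.28 in EAAE E2 uteri and -4.48, -3.62 and -3.95 in EAAE saline uteri. In WT uteri it read 2.61, 3.28 and 2.67 with E2 and -3.0, -2.85 and -3.07 with saline. The WT E2 uteri lay far above all 9 others, while the EAAE groups overlapped. E2 raised Adamts4 56.8-fold in WT (log2 difference 5.83, SE 0.23, adjusted p = 6.71e-08), and its difference in EAAE was -0.37 (SE 0.23, adjusted p = 0.453). Within the 2 slides that held both WT groups the rise was 5.67 and 6.25. The adipocyte list mean of the same WT E2 uteri was -2.28, 0.21 and -2.99 in the order of the Adamts4 values, each below that of every WT saline uterus, and its part in the Adamts4 rise was not tested.

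Adamts1, a versican-cutting protease known in the mouse ovary for its part in ovulation, rose in both genotypes. It read 2.95, 2.95 and 2.34 in EAAE E2 uteri and 1.64, 1.49 and 1.53 in EAAE saline uteri. The WT values were 4.09, 4.15 and 4.0 with E2 and 1.26, 1.42 and 1.44 with saline. Neither pair of groups overlapped, and the EAAE E2 uteri lay between the saline uteri and the WT E2 uteri. The rise was 2.29-fold in EAAE (1.20, SE 0.15, adjusted p = 0.00625) and 6.53-fold in WT (2.71, SE 0.15, adjusted p = 5e-07). In EAAE the size held at 1.37 and 1.47 within the 2 slides with both groups, but the call was lost when the EAAE arrays were fitted alone or when slide and array position entered the model, with an adjusted p of up to 0.174.

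Adamts9, which cuts versican and is known in mice for its part in development and blood vessel growth, also rose in both. Its values were -0.48, -0.61 and -0.50 in EAAE E2 uteri, against -1.50, -1.13 and -1.45 in EAAE saline uteri. They were 0.69, 1.21 and 0.61 in WT E2 uteri, against -0.61, -0.47 and -0.44 in WT saline uteri. Neither pair overlapped, and the EAAE E2 values overlapped those of WT saline uteri. The rise was 0.83 in EAAE (SE 0.16, adjusted p = 0.0367) and 1.34 in WT (SE 0.16, adjusted p = 5.79e-05). The EAAE call was lost under 15 of 23 alternatives, with values from 0.59 to 0.94, and among them were array-median scaling, the slide block, each fit without 1 of the 6 EAAE arrays, and the fits without WT E2 replicate 1 or any WT saline array.

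Adamts8 and Adamts15, proteoglycan-cutting members that neighbour each other on chromosome 9, rose in WT uteri. Adamts8 read -0.12, 0.49 and 0.31 in EAAE E2 uteri and 0.63, 0.73 and 0.78 in EAAE saline uteri. In WT uteri it read 1.17, 1.72 and 1.01 with E2 and -0.01, -0.07 and 0.38 with saline. The EAAE E2 uteri were therefore below EAAE saline, and the WT E2 uteri above WT saline, without overlap. The WT rise was 1.20 (SE 0.21, adjusted p = 0.000772), and the EAAE difference of -0.49 was not called (adjusted p = 0.279). Adamts15 read -0.28, -0.16 and 0.18 in EAAE E2 uteri, -0.26, -0.08 and -0.09 in EAAE saline uteri, 0.89, 1.11 and 0.83 in WT E2 uteri and 0.45, 0.29 and 0.28 in WT saline uteri. Only its WT groups stood apart, with a rise of 0.60 (SE 0.13, adjusted p = 0.00281) against 0.05 in EAAE (SE 0.13, adjusted p = 0.87).

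Adamts5, the other main aggrecanase of mouse cartilage, fell in WT uteri. It read 1.64, 1.98 and 1.33 in EAAE E2 uteri and 0.79, 1.04 and 1.04 in EAAE saline uteri. The WT values were -0.01, -0.07 and -0.01 with E2 and 1.01, 1.17 and 1.19 with saline. All EAAE E2 uteri were above EAAE saline and all WT E2 uteri below WT saline. The WT difference was -1.16 (SE 0.15, adjusted p = 0.000105), while the EAAE difference of 0.69 (SE 0.15) just missed the threshold, with an adjusted p of 0.0515. That EAAE value passed under 6 of 23 alternatives, among them quantile scaling, the mean of the gene's probes and the fit without EAAE E2 replicate 3. In the RefSeq annotation, Adamts1 and Adamts5 are neighbours on chromosome 16 with no protein-coding gene listed between them, and in WT uteri they moved in opposite directions.

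**Figure D2:**
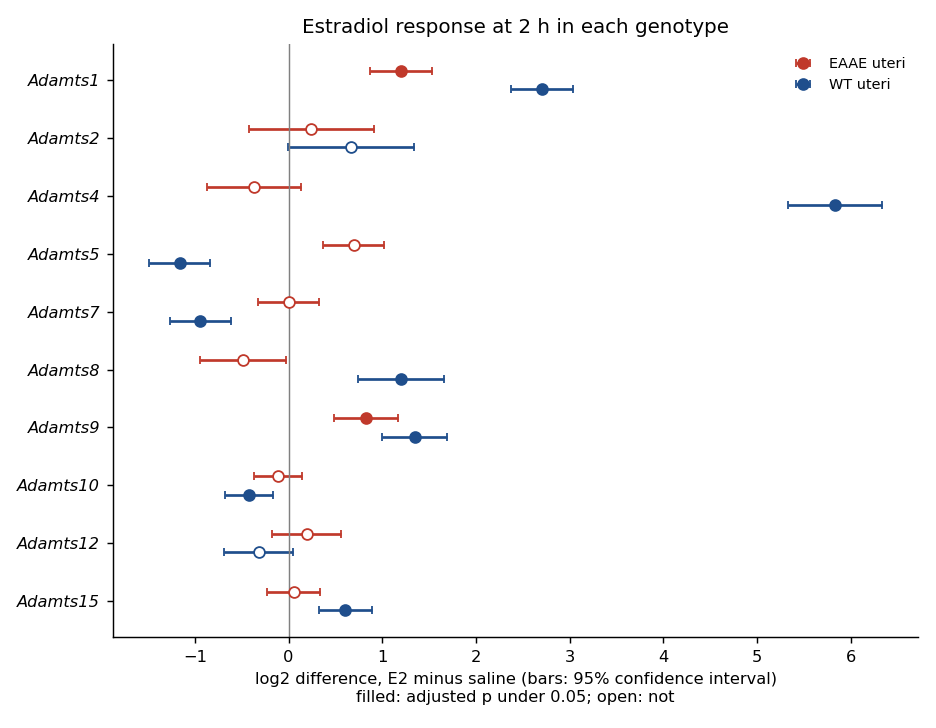
Log2 difference between E2 and saline for each Adamts gene in EAAE uteri (upper point of each pair) and WT uteri (lower point), with 95% confidence intervals and filled points where the adjusted p is under 0.05. In EAAE uteri Adamts1 (1.20) and Adamts9 (0.83) are filled, whereas 8 of 10 genes are filled in WT, from -1.16 for Adamts5 to 5.83 for Adamts4.

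Adamts2, the procollagen amino-propeptidase whose loss makes skin fragile, did not pass the test on its brightest probe in either genotype. It read 2.70, 1.33 and 2.36 in EAAE E2 uteri, against 1.83, 1.93 and 1.90 in EAAE saline uteri. In WT it read 3.69, 3.95 and 3.45 with E2, against 3.36, 2.76 and 2.97 with saline. The second EAAE E2 uterus lay below all EAAE saline uteri and the other 2 above them. The differences were 0.24 in EAAE (SE 0.30, adjusted p = 0.731) and 0.67 in WT (SE 0.30, adjusted p = 0.0907). The WT value passed without that second EAAE E2 array, with the WT arrays fitted alone, and with the mean of the gene's probes, which gave 1.71.

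Adamts7, known in rodents for its action on vascular smooth muscle cells, and its close relative Adamts12 gave smaller values. Adamts7 read -1.66, -1.66 and -1.21 in EAAE E2 uteri, -1.62, -1.48 and -1.44 in EAAE saline uteri, -1.33, -1.55 and -1.55 in WT E2 uteri and -0.76, -0.34 and -0.50 in WT saline uteri. The WT saline uteri were high and the other 9 lay together. The difference with E2 was 0.00 in EAAE (SE 0.15, adjusted p = 0.998) and -0.94 in WT (SE 0.15, adjusted p = 0.000409). Adamts12 read -1.79, -2.18 and -2.48 in EAAE E2 uteri, -2.53, -2.22 and -2.27 in EAAE saline uteri, -2.02, -2.19 and -2.40 in WT E2 uteri and -1.89, -1.82 and -1.95 in WT saline uteri. Its values were not called with E2 in EAAE (0.19, SE 0.17, adjusted p = 0.605) or in WT (-0.32, SE 0.17, adjusted p = 0.14). Adamts10 fell slightly in WT, by 0.42 on the log2 scale (SE 0.12, adjusted p = 0.0122), and the call was lost under 4 of 23 alternatives, array-median scaling (-0.28), slide with position, and the fits without WT E2 replicate 3 or WT saline replicate 3. It read -0.28, -0.17 and -0.01 in EAAE E2 uteri, -0.10, -0.05 and 0.03 in EAAE saline uteri, -0.27, -0.47 and -0.60 in WT E2 uteri and -0.19, -0.02 and 0.13 in WT saline uteri.

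Slides were compared as batches, since 2 slides held both groups of each genotype. Within them the E2 difference of Adamts9 was 0.65 and 0.86 in EAAE and 1.22 and 1.67 in WT, and that of Adamts1 in WT was 2.72 and 2.74. Adamts8 gave -0.85 and -0.22 in EAAE and 1.03 and 1.57 in WT, and Adamts5 gave 0.61 and 1.06 in EAAE and -1.25 and -1.02 in WT. In WT, Adamts15 gave 0.38 and 0.83, Adamts7 -1.13 and -0.78, and Adamts10 -0.52 and -0.41. Each called direction thus held within both slides, with 1 or 2 arrays per group.

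The scale itself bears on directions near 0. With the array median in place of the 75th percentile, the median of all tested genes in the WT response moved to -0.01, and 53.5% of the WT calls were higher, against 39.4% in the scaling used here. The all-gene median of the genotype difference in response moved to 0.05, against 0.15. The share of higher calls became 62.9% in EAAE, against 49.1%, and 49.8% for the genotype difference in response, against 60.5%. Every direction given above for a called member was the same under both scalings.

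The second question was whether the genotypes differed in their response, which was tested as EAAE minus WT. It was called higher for Adamts5 and Adamts7 and lower for Adamts1, Adamts4, Adamts8 and Adamts15 (2 higher, 4 lower and 4 not called), where 22.7% of all tested genes were called higher and 14.8% lower. The largest was that of Adamts4, at -6.20 (SE 0.32, adjusted p = 1.14e-06), followed by Adamts5 at 1.85 (SE 0.21, adjusted p = 0.000112). Adamts8 differed by -1.69 (SE 0.29, adjusted p = 0.00143) and Adamts1 by -1.51 (SE 0.21, adjusted p = 0.000415). Adamts7 differed by 0.94 (SE 0.21, adjusted p = 0.0054), and this call was lost with the mean of its probes (adjusted p = 0.0536). Adamts15 differed by -0.55 (SE 0.18, adjusted p = 0.0359), a call lost under 10 of 22 alternatives, among them the fits without EAAE E2 replicate 1 or 2, EAAE saline 2 or 3, WT E2 1 or 2, or WT saline 2 or 3, where the adjusted p reached at most 0.0864. For Adamts9 the difference of -0.52 was not called (95% confidence interval -1.01 to -0.03, adjusted p = 0.089), nor were those of Adamts2 (-0.42, interval -1.37 to 0.52), Adamts12 (0.51, interval -0.01 to 1.04) and Adamts10 (0.31, interval -0.06 to 0.67). All 4 passed under some alternative. Adamts9 passed with slide as a block, alone or with position (-0.76, adjusted p = 0.0209 and 0.0256), with normexp background correction, and with the mean of its probes (-1.12, adjusted p = 0.00036). With the mean of a gene's probes, Adamts2 gave -1.41 (adjusted p = 0.0111) and Adamts10 0.39 (adjusted p = 0.0418), and without EAAE E2 replicate 3, Adamts12 passed. The median of the 10 members was -0.47, against 0.15 over all tested genes.

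Other probes of the same genes were fitted beside all 29017 tested probes, and 22 of the 24 member probes passed the filter. The 2 that did not were an Adamts12 probe at chr15:11358202-11358261, plus strand, well above background on 4 of 12 arrays, and an Adamts8 probe at chr9:30840914-30840973, on the strand opposite to the other Adamts8 probes and not well above background on any array. In most genes the probes moved alike. The second probe of Adamts1, 1147 bases upstream, rose by 1.20 in EAAE (adjusted p = 0.019) and 2.95 in WT (adjusted p = 1.2e-06), close to the brightest probe. The second Adamts5 probe fell by 1.15 in WT, and its EAAE value was 0.45 (adjusted p = 0.0889). The other tested Adamts8 probe gave -0.57 in EAAE, not called, and rose by 1.23 in WT. For Adamts7 the dimmer probe fell by 1.13 in WT, and its value in EAAE was -0.30, not called. Adamts12's second tested probe gave 0.08 in EAAE and -0.35 in WT, neither called.

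Probes of Adamts2 disagreed in size. The 3 that do not stand for the gene all rose with E2 in WT, by 0.98 at the upstream probe shown above, by 1.56 at a probe 3361 bases downstream (chr11:50764088-50764147, plus strand), and by 3.63 (adjusted p = 1.03e-06) at a probe at chr11:50754733-50754792, plus strand. That last probe, designed on a cDNA clone 5994 bases upstream of the brightest one, read -4.61, -5.12 and -4.95 in EAAE E2 uteri and -4.78, -4.98 and -5.42 in EAAE saline uteri, where 2 of 3 arrays were well above background. It read -0.84, -0.30 and -1.08 in WT E2 uteri, against -4.13, -4.49 and -4.49 in WT saline uteri. Its genotype difference in response was -3.46 (SE 0.32, adjusted p = 3.42e-05), against -0.42 at the brightest probe. Whether this clone and the main transcript are one RNA was not tested.

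Adamts9 and Adamts10 also had a probe that stood apart. The Adamts9 probe at chr6:93014496-93014555, minus strand, 153.3 kb upstream of the brightest one, read -3.47, -3.61 and -3.59 in EAAE E2 uteri and -3.96, -3.67 and -3.87 in EAAE saline uteri. In WT it read -1.08, -1.22 and -1.30 with E2 and -3.91, -3.54 and -3.97 with saline. It rose by 2.61 in WT (adjusted p = 2.2e-07) with an EAAE value of 0.28, not called, and a genotype difference of -2.33 (adjusted p = 1.07e-05) where the brightest probe gave -0.52. The third Adamts9 probe, 20.2 kb upstream, gave 0.78 in EAAE (adjusted p = 0.0578) and rose by 1.30 in WT. A dim Adamts10 probe 21.0 kb upstream of the brightest fell in both genotypes, by 0.84 in EAAE (adjusted p = 0.00681) and by 1.33 in WT (adjusted p = 4.74e-06), and was well above background on 2 of 3 WT E2 arrays. The Adamts10 junction probe shown above gave -0.14 in EAAE, not called, and fell by 0.51 in WT (adjusted p = 0.00122).

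**Figure D3:**
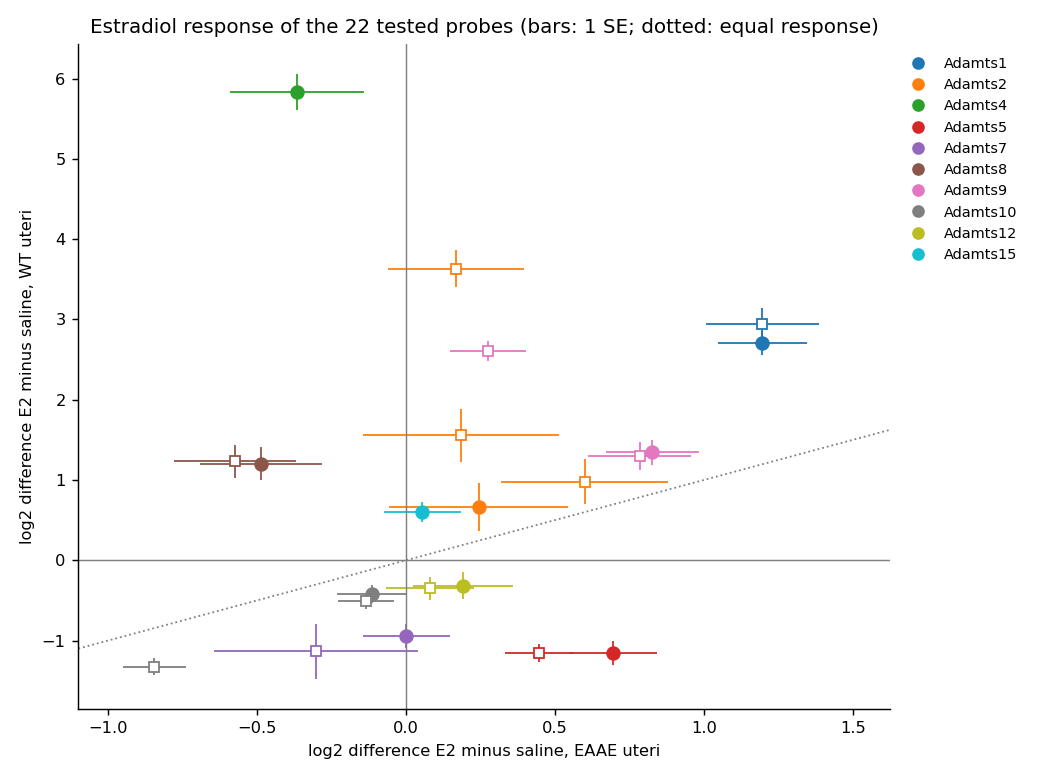
E2 response of the 22 tested Adamts probes, with the log2 difference in EAAE uteri on the horizontal and in WT uteri on the vertical axis (bars are 1 SE, filled circles the brightest probe of each gene, open squares the others, dotted line equal response). Open squares of Adamts2 (3.63 in WT) and Adamts9 (2.61 in WT) lie far above the filled circles of those genes, at 0.67 and 1.34.

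The third question was how the genotypes differed within a treatment. After E2, Adamts5 was higher in EAAE than in WT uteri and Adamts1, Adamts2, Adamts4, Adamts8, Adamts9 and Adamts15 were lower (1 higher, 6 lower and 3 not called), where 33.0% of all tested genes were called higher and 24.8% lower. Under saline, Adamts8 was higher in EAAE and Adamts2, Adamts4, Adamts7, Adamts9 and Adamts15 were lower (1 higher, 5 lower and 4 not called), where 13.7% were called higher and 15.8% lower. The member medians were -1.05 after E2 and -0.47 under saline, against 0.10 and -0.02 over all tested genes. Neither comparison shares arrays with the other.

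Adamts4 differed by -7.24 after E2 (SE 0.23, adjusted p = 9.24e-09), and under saline it already differed by -1.04 (SE 0.23, adjusted p = 0.00643). Adamts2 differed by -1.57 after E2 (SE 0.30, adjusted p = 0.00118) and by -1.14 under saline (SE 0.30, adjusted p = 0.0168). For Adamts9 the values were -1.37 after E2 (SE 0.16, adjusted p = 3.1e-05) and -0.85 under saline (SE 0.16, adjusted p = 0.00259). On the brightest probe these 3 genes were below WT in both treatments, with no overlap of the groups in either. How many of all tested genes had groups without overlap was not counted, so this is not a trait of the members. The saline values depended on the model and on the probe. With slide as a block the saline calls of Adamts4 (-0.70, adjusted p = 0.0585) and Adamts2 (-0.89, adjusted p = 0.11) were lost. The other 2 Adamts9 probes gave -0.08 (adjusted p = 0.771) and -0.03 (adjusted p = 0.896) under saline, and the mean of its probes gave -0.32 (adjusted p = 0.0501). Of the other Adamts2 probes, the downstream one gave -0.87 under saline (adjusted p = 0.0722), not called. The rest gave -1.25 and -0.69, both called. Adamts15 differed by -1.03 after E2 (SE 0.13) and -0.48 under saline (SE 0.13, adjusted p = 0.0168). Adamts7 differed by -0.03 after E2, not called, and by -0.98 under saline (SE 0.15, adjusted p = 0.000809). Its dimmer probe gave -0.61 under saline (adjusted p = 0.207), not called. Adamts8 differed by -1.08 after E2 (SE 0.21, adjusted p = 0.00115) and by 0.61 under saline (SE 0.21, adjusted p = 0.0469), the saline call being lost under 11 of 23 alternatives, in 7 of which a single array was left out. Adamts1 differed by -1.33 and Adamts5 by 1.68 after E2, with 0.18 and -0.17 under saline, neither called. After E2, Adamts10 differed by 0.29 (SE 0.12, adjusted p = 0.0502) and just missed the threshold, and it passed under 8 of 23 alternatives, among them slide as a block, the mean of its probes (0.40, adjusted p = 0.00383) and the fits without EAAE E2 replicate 1, WT E2 replicate 1 or WT saline replicate 1 or 3.

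The array layout limits the saline values and those that involve EAAE E2 uteri. Each of the 3 slides held an EAAE E2 and a WT E2 array, and within slides Adamts4 differed by -7.57 to -7.00, Adamts5 by 1.40 to 1.99 and Adamts9 by -1.72 to -1.09. Only 1 slide held both saline groups, with 1 array of each, and there Adamts2 differed by -1.43, Adamts7 by -0.71, Adamts4 by -0.62, Adamts9 by -0.52, Adamts15 by -0.53 and Adamts8 by 0.74. With slide as a block, 3 members were called under saline (Adamts2, Adamts4 and Adamts15 were lost) and 8 after E2 (Adamts10 was added), and with slide and array position together 0 under saline and 6 after E2, where the Adamts2 call was lost (adjusted p = 0.143). Over all 19301 tested genes, the saline calls were 2635 higher and 3055 lower without these terms. They became 1645 and 1976 with slide as a block, and 218 and 198 with slide and position. After E2 the all-gene calls were 6371 higher and 4779 lower, then 6379 and 4734, and 2861 and 2334. The loss of saline calls was thus not particular to the members. Without WT saline replicate 1 the saline calls of Adamts2 and Adamts15 were lost, and without EAAE saline replicate 1 that of Adamts15. Adamts12 passed under saline without EAAE E2 replicate 1 or 3. Each EAAE E2 sample sat at the 4th place of its slide. WT E2 samples sat at places 1, 3 and 2, EAAE saline samples at 2, 3 and 3, and WT saline samples at 1, 1 and 2. Place and genotype thus partly coincided under saline. After E2 no place was shared by the genotypes, and in EAAE uteri none was shared by E2 and saline samples. Differences between these groups, the EAAE rises of Adamts1 and Adamts9 among them, cannot be told apart from place. Macrophage markers moved with genotype under saline, with 4 of 7 lower and a list mean of 0.46 to 0.83 in EAAE saline uteri and 1.61 to 2.27 in WT saline uteri, and 5 of 7 epithelial markers were higher and 1, Foxa2, was lower at -2.39 (adjusted p = 0.000244). After E2, 7 of 8 stromal markers were higher in EAAE and 1 was lower, 7 of 7 adipocyte markers were higher, 5 of 7 epithelial markers were higher and 1 was lower, and 4 of 6 smooth muscle markers were lower. Over all tested genes, 13.7% were called higher and 15.8% lower under saline, and 33.0% and 24.8% after E2. These marker counts come from the fit without slide or position. The part of the markers in the Adamts values was not tested.

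**Figure D4:**
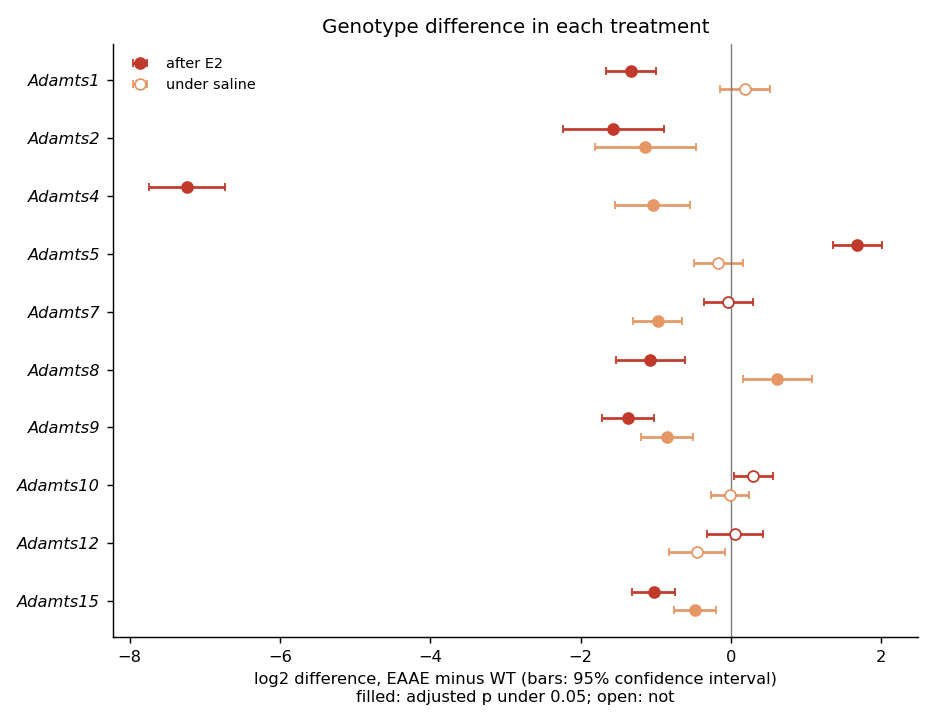
Log2 difference between EAAE and WT uteri for each Adamts gene after E2 (upper point of each pair) and under saline (lower point), with 95% confidence intervals and filled points where the adjusted p is under 0.05. Adamts4 reaches -7.24 after E2 and -1.04 under saline, and Adamts5 is the only member above 0 by a called value after E2, at 1.68.

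Of the 9 other Adamts genes looked for, 7 were named on the array and 5 were tested. Adamts6, a close relative of Adamts10, moved in opposite directions, as it rose by 1.13 in EAAE (SE 0.22, adjusted p = 0.0431) and fell by 1.0 in WT (SE 0.22, adjusted p = 0.00391). It read -0.92, -0.69 and -1.80 in EAAE E2 uteri and -2.35, -2.30 and -2.14 in EAAE saline uteri. In WT it read -3.34, -3.28 and -3.23 with E2 and -2.32, -2.27 and -2.25 with saline. The alternatives are not reported here for Adamts6. Over all genes, the EAAE calls of 133 higher and 138 lower became 5 and 2 with the EAAE arrays fitted alone. They became 4 and 3 with slide and position in the model. Adamts19 fell in WT by 0.49 on the log2 scale (SE 0.10, adjusted p = 0.00236), with 0.24 in EAAE, not called. Adamts3, Adamts16 and Adamts18 were not called with E2 in either genotype. Among 7 genes for ADAMTS-like proteins, which have the ancillary domains without the protease, Adamtsl2, a fibrillin-binding protein, rose by 2.95 in WT (SE 0.36, adjusted p = 7.76e-05), Adamtsl4 fell by 0.89, and 0 of 7 were called in EAAE. Over all tested genes, 19.5% were called higher and 29.9% lower in WT, and 0.689% and 0.715% in EAAE, so 0 of 7 is near the EAAE shares.

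Substrates and regulators were counted from lists, and their counts are to be read against all tested genes, of which 0.689% were called higher and 0.715% lower with E2 in EAAE, and 19.5% higher and 29.9% lower in WT. In EAAE uteri 0 of 17 tested substrates were called, and in WT 2 were higher and 5 lower, which is near those shares. Vcan, the versican gene, which was named after its values were seen, had a value of 0.70 in EAAE (SE 0.19, adjusted p = 0.112) and fell by 0.62 in WT (SE 0.19, adjusted p = 0.0216). Nid2, a basement membrane linker, had 1.04 in EAAE (SE 0.25, adjusted p = 0.0802) and -0.45 in WT, neither called. Vegfc, the lymphatic growth factor that is cut through Adamts3, fell by 1.08 in WT (SE 0.13, adjusted p = 6.51e-05), and its EAAE value was 0.10, not called. Dcn, the gene of the small proteoglycan decorin, fell by 0.39 in WT (SE 0.09, adjusted p = 0.00483), with 0.19 in EAAE, not called. Ncan, a brain hyalectan, rose by 2.09 in WT (SE 0.43), where 3 of 3 E2 arrays and 1 of 3 saline arrays were well above background. Ncan passed the filter only through WT E2 uteri, so its place among the 2 higher substrates follows in part from the filter. Of 6 procollagen genes, Col5a1 rose in WT by 0.84 and Col2a1, Col3a1 and Col5a2 fell, by 1.23, 1.19 and 0.60, while 0 of 6 were called in EAAE.

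Among 12 tested genes for activation, inhibition and clearance, 4 rose and 2 fell in WT, and 0 were called in EAAE, where under 1 gene in a list of this size is called at the share over all genes (0.689% higher and 0.715% lower, against 19.5% and 29.9% in WT). Mmp17, a membrane protease known to activate Adamts4, rose by 1.70 in WT (SE 0.17, adjusted p = 1.98e-05), and its EAAE value was -0.40, not called. Sdc1, a cell-surface proteoglycan, rose by 1.09 (SE 0.12) and Timp3 by 0.68 (SE 0.10, adjusted p = 0.000392) in WT, with -0.26 and -0.04 in EAAE. Fbln1, a matrix cofactor of Adamts1, fell by 0.44 in WT (SE 0.12). Pofut2, which adds fucose to thrombospondin repeats, rose by 0.40 in WT. Of 7 tested partners of hyaluronan and versican, 1 was higher and 3 lower in WT and 0 were called in EAAE, also near those shares. Cd44, the hyaluronan receptor, fell by 0.76 in WT (adjusted p = 0.018), and Hapln4, a hyaluronan link protein, rose by 1.60, with 3 of 3 E2 arrays and 1 of 3 saline arrays well above background. Hapln4, the 1 higher partner, passed the filter only through WT E2 uteri, so that count follows in part from the filter. Ptx3, a hyaluronan matrix stabiliser, fell by 1.01 in WT (SE 0.21, adjusted p = 0.00267), with -0.81 in EAAE (adjusted p = 0.094), and Tnfaip6, which loads heavy chains onto hyaluronan, had 0.51 in EAAE (adjusted p = 0.0515). List medians in EAAE and WT were 0.18 and -0.39 for substrates, 0.14 and -0.87 for procollagens, -0.05 and 0.24 for regulators and 0.13 and -0.28 for hyaluronan partners. Against medians of 0.03 and -0.15 over all tested genes these are descriptions of chosen lists.

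**Figure D5:**
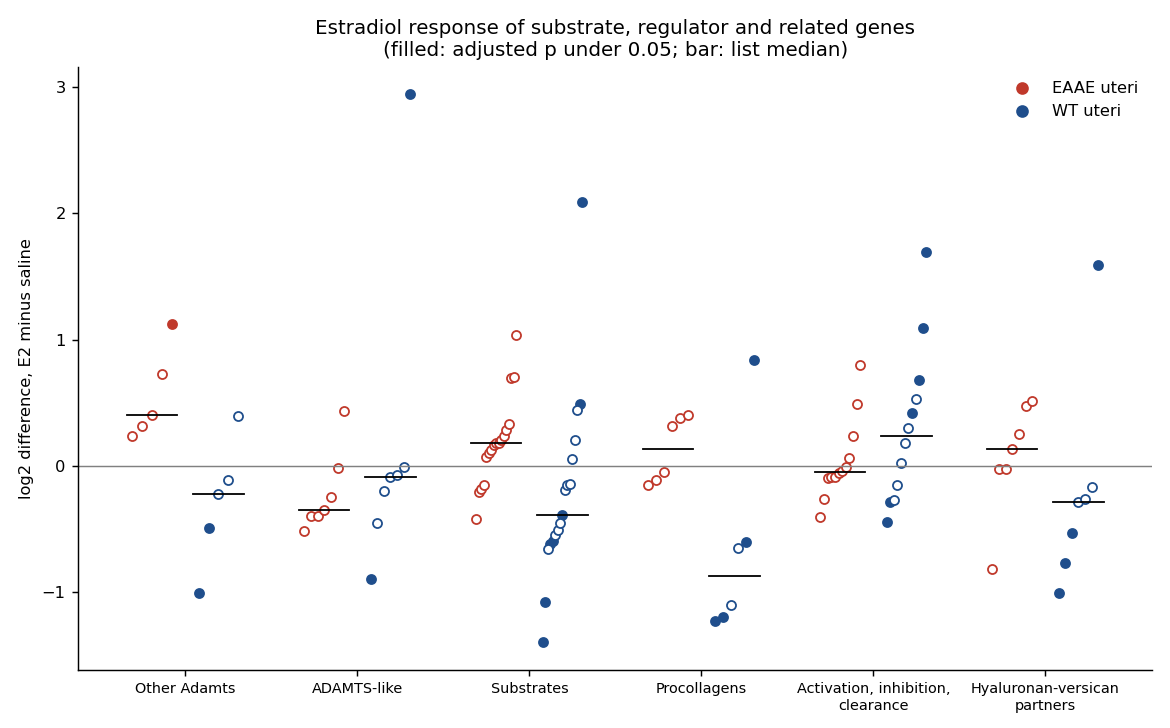
Log2 difference between E2 and saline for tested genes of 6 lists in EAAE uteri (left of each pair) and WT uteri (right), with filled points where the adjusted p is under 0.05 and bars at list medians. In EAAE the 1 filled point is Adamts6 at 1.13, while in WT filled points lie on both sides of 0, up to 2.95 for Adamtsl2.

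Across the 12 arrays, which share groups and slides, the members' signals ran from closely alike to opposed, given here as Pearson's r without a test. Adamts4 ran closest to Adamts15 (0.93) and Adamts9 (0.90), and most against Adamts5 (-0.90). Adamts2 and Adamts15 had 0.89. Adamts12 did not exceed 0.53 with any member. The genes whose signals were most like each member were Ackr3 (0.99) and Myo10 (0.98) for Adamts1, Actg1 (0.997) and Zxdc (0.997) for Adamts4, and Rgmb (0.98) and Ppcdc (0.97) for Adamts5. They were Rasip1 (0.98) for Adamts9, Flnc (0.96) for Adamts8, Hnrnpa3 (0.99) for Adamts15, Tnfaip2 (0.97) for Adamts2, Ly96 (0.95) for Adamts7, Acot1 (0.96) for Adamts10 and Cdk5r2 (0.93) for Adamts12. No shared function is implied.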

How the data were processed

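Cy3-labelled cRNA from 500 ng of total RNA per uterus was hybridised to single-colour Agilent mouse arrays. Per the file headers, the authors' scanner software, Agilent Feature Extraction 9.5.3.1, made the deposited processed intensity (background-subtracted), the mean and the local background intensity. The series table held the same processed intensity (largest relative difference 0, column medians 147.7 to 225.4). Control and outlier spots were left out, spots of a probe averaged, log2 taken after scaling to each array's 75th percentile (1324.4 to 1851.8 intensity units), and a probe kept if, in 1 group or more, every array had it well above background. The brightest probe stood for a gene. limma 3.58.1 (R 4.3.3) fitted all 12 arrays as 4 group means, with 2-sided tests, Benjamini-Hochberg adjustment over 19301 genes and a threshold of 0.05, in 5 comparisons. The fit was checked on simulated data. Replicates are separate mice, and p-values set each difference against a spread between mice. That spread was pooled over the 4 groups and moderated across genes, so an EAAE p-value does not rest on the spread of EAAE mice alone. Members, lists and tests were chosen with earlier results of these data known. Named genes were all 10 members, Esr1, up to 4 genes per list with the smallest p in either E2 comparison, Vcan and Foxa2 (chosen after their values were seen), and up to 3 likest genes per member. Sequences are from the array files and RefSeq; probes have no exon or UTR annotation here. Alternatives covered background correction, scaling, the filter, probe averaging, arrays fitted, slide and position, the replicate number, and leaving out each array. Same-numbered arrays of different groups deviated together with r of -0.282 to 0.274 (median 0.03), against a median of 0.018 for other numbers. Samples were not paired by number, though so few arrays per group cannot exclude a pairing. Arrays of different groups had a median r of 0.122 on the same slide and -0.017 on other slides. Slide entered only the alternatives. Adamts13 and Adamts20 were not tested, and Adamts14 and Adamts17 were not analysed here.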

Additional observations from a re-analysis of the deposited data

Results flagged for a closer look

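The difference in E2 response between EAAE and WT uteri passed the test for 6 Adamts genes, on the log2 scale and as EAAE minus WT. Over all tested genes, 22.7% were called higher and 14.8% lower in it. It was -6.20 for Adamts4, -1.69 for Adamts8, -1.51 for Adamts1, -0.55 for Adamts15, 0.94 for Adamts7 and 1.85 for Adamts5. In Adamts8 and Adamts5 every EAAE E2 uterus lay on the opposite side of its saline uteri from every WT E2 uterus. The EAAE difference was called in neither gene (adjusted p = 0.279 for Adamts8 and 0.0515 for Adamts5). How many of all tested genes show this pattern was not counted.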

How the results depend on the processing

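Of 50 values (10 members in 5 comparisons), 29 were called, and 17 of these kept their call and direction under all alternatives, 23 in each comparison and 22 for the difference in response. Among the 21 not called, 8 gained a call somewhere. The 2 members called with E2 in EAAE became 1 with no filter on dim probes, 0 with the EAAE arrays fitted alone, 1 with slide as a block and 0 with slide and position, and 1 to 2 without single arrays. They became 3, with Adamts5 added, under normexp, quantile scaling, the filter on all 12 arrays and the mean of a gene's probes. The 6 called under saline between genotypes became 3 with slide as a block and 0 with slide and position, and 3 to 7 without single arrays. Over all genes, that saline comparison had 2635 higher and 3055 lower. It had 1645 and 1976 with slide as a block, and 218 and 198 with slide and position. Without single arrays it had 1922 to 2803 higher and 2269 to 3234 lower. Leaving out single arrays gave 7 to 9 for E2 in WT, 5 to 7 for the difference in response and 7 to 8 for genotype after E2. Among all tested genes these fits gave 3141 to 3927 higher and 4554 to 6024 lower for E2 in WT. They gave 3421 to 4297 and 2339 to 2924 for the difference in response, and 5565 to 6389 and 4173 to 4798 for genotype after E2. Over all genes, the EAAE response had 133 higher and 138 lower, against 5 and 2 with the EAAE arrays alone, 77 and 74 with slide as a block, 4 and 3 with slide and position, 76 and 51 with no filter, and 37 to 175 higher and 25 to 206 lower without single arrays. The replicate block gave 79 and 65 there, and among members it took the call only from the difference in response of Adamts15 (-0.55, adjusted p = 0.0534). There were 8 values that changed sign under some alternative, none of them called on either side. They were Adamts7 with E2 in EAAE (-0.15 with the mean of its probes, -0.148 to 0.0765 without single arrays), Adamts15 with E2 in EAAE (-0.0771 to 0.1509 without single arrays), Adamts1 under saline (-0.0175 with the mean of its probes, -0.24 with slide and position), Adamts5 under saline (0.0141 with the mean of its probes), Adamts7 after E2 (0.29 with slide and position), Adamts12 after E2 (-0.1264 to 0.2211 without single arrays, the lowest without EAAE E2 replicate 1), Adamts2 with E2 in EAAE (-0.0421 without EAAE E2 replicate 1) and Adamts10 under saline (-0.0957 to 0.0654 over all alternatives). Their causes were not tested. Fewer arrays enter the fits of EAAE alone and without single arrays. Position and group are partly the same, and only EAAE E2 arrays sat at place 4. The WT arrays fitted alone gave 4013 higher and 6340 lower over all genes, against 3756 and 5773 with all arrays in the fit. What lowered the EAAE counts was not tested. Dim probes, such as the upstream Adamts10 one, are limited by signal over background.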
